A study of Homo sapiens with 4 samples.

Results

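Genes of tubule injury and dedifferentiation were examined in 2 PARP1 immunoprecipitations (IPs): HAVCR1, LCN2, SOX9, VIM, CD44, CDH6, VCAM1, PROM1, SPP1 and CLU. They were chosen by name, through the Ensembl identifiers in both deposited site lists, and are 10 of 19951 protein-coding genes of GENCODE release 29. They held 73 of 166248 sites in IP 1 and 96 of 229782 in IP 2, which is 0.0439% and 0.0418%. The series holds 2 PARP1 IPs and 2 inputs of HK-2, an immortalised human proximal tubule epithelial line, and the inputs were not analysed here. The IPs used a monoclonal Flag antibody, and the labels name no control IP, treatment or genotype and do not say whether a tagged PARP1 was introduced. They do not say either whether separate cultures were used, so what differs between IP 1 and IP 2 can be technical.

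A site in these lists is a single base of a given strand of GRCh38 where sequenced tags of that IP carried a substitution, a deletion or an insertion. The authors gave the tags over the base and the mutated tags among them. A sense site is one that the lists place in an intron or exon on the strand of its gene, and an antisense site lies on the other strand. The lists show where mutated tags were found in RNA recovered in the IPs labelled PARP1. Without a control IP they do not show that this RNA was bound to PARP1, and what produced the mutations was not tested. Without input values, transcript abundance and recovery in the IP cannot be told apart, and neither can fewer expressing cells and less RNA per cell.

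After injury, proximal tubule epithelium flattens, loses transporters and brush border, and switches on genes that are low in the healthy tubule. HAVCR1 (kidney injury molecule 1, a phosphatidylserine receptor) and LCN2 (a siderophore-binding lipocalin) are its best known markers. SOX9 is a transcription factor of regenerating tubule cells, and VIM (vimentin) and CD44 (the hyaluronan receptor) mark dedifferentiated ones. CDH6 is a cadherin of the developing proximal tubule, VCAM1 and PROM1 (CD133) are surface markers of injured and of scattered tubular cells, SPP1 (osteopontin) is a secreted phosphoprotein and CLU (clusterin) a secreted chaperone. PARP1 is the main poly(ADP-ribose) polymerase of the nucleus and is known for its response to DNA damage.

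CDH6 and HAVCR1 carried most of what was found. They held 48 of the 67 sense sites of the 10 genes in IP 1 and 65 of 84 in IP 2, which is 71.6% and 77.4%. The genes with a site on either strand in both IPs were HAVCR1, VIM, CD44, CDH6 and VCAM1, which is 5 of 10, against 55.4% of all protein-coding genes. SPP1 and CLU had sites in IP 1 alone and PROM1 in IP 2 alone, which is 3 of 10, against 16.4% of protein-coding genes. LCN2 and SOX9 had none in either IP, which is 2 of 10, against 28.2%. The share named in both IPs lay near that of protein-coding genes in general. The genes differed widely in how many sites and tags they held.

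**Figure D1:**
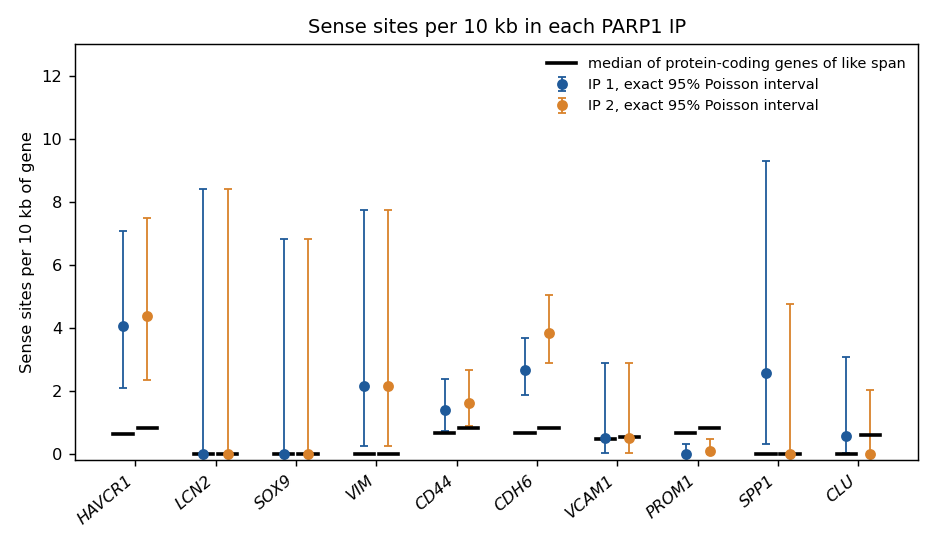
Sense sites per 10 kb of gene (y axis) for each of the 10 genes (x axis) in IP 1 (blue) and IP 2 (orange), with exact 95% Poisson intervals that cover counting error only; black bars are the median of protein-coding genes in the same of 10 span bins. HAVCR1 and CDH6 stand above the bar in both IPs, at 4.04 and 4.38 and at 2.66 and 3.84 sites per 10 kb. CD44, at 1.39 and 1.60, and VIM, at 2.14 on 2 sites in each IP, also lie above their bars.

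HAVCR1 lies on chromosome 5, from 157029413 to 157059119 on the minus strand (GRCh38). IP 1 placed 12 sense sites in its 29.7 kb and IP 2 placed 13, a density of 4.04 per 10 kb (exact 95% Poisson interval 2.09 to 7.06) and 4.38 (2.33 to 7.48). Protein-coding genes of like span, the same of 10 span bins, had a median of 0.632 and 0.811 per 10 kb. By this density HAVCR1 was at percentiles 96.9 and 96.8 of its span bin. Of its sense sites, 11 in IP 1 and all 13 in IP 2 were intronic. They were spread over the gene: from 1.85 to 26.3 kb from its 5′ end in IP 1 and from 2.14 to 28.6 kb in IP 2. Numbered along 1 annotated transcript with 7 exons, intron 4 (6.36 kb) held 2 and 4 of them, intron 5 (5.27 kb) held 3 and 2, and intron 6 (7.41 kb) held 3 and 2. Antisense sites of HAVCR1 numbered 3 in each IP, and no other annotated gene overlaps it.

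CDH6, on the same chromosome from 31193750 to 31329146 on the plus strand, had the most sites of the 10. IP 1 placed 36 sense sites in its 135.4 kb and IP 2 placed 52, a density of 2.66 per 10 kb (exact 95% Poisson interval 1.86 to 3.68) and 3.84 (2.87 to 5.04), against a median of 0.661 and 0.822 in its span bin. Its percentiles for span were 95.5 and 98.6. Introns held 33 and 49 of the sites. Intron 1, which is 73.5 kb of the gene, held 19 and 28, and intron 2 (26.3 kb) held 6 and 12. Along the gene the sites had their median at 50.1% of its length in IP 1 and 54.0% in IP 2, so they did not gather at either end. CDH6 had 2 antisense sites in each IP. The annotated antisense gene ENSG00000254138 overlaps it, and the lists assign a further 3 and 1 sites inside CDH6 to that gene.

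**Figure D2:**
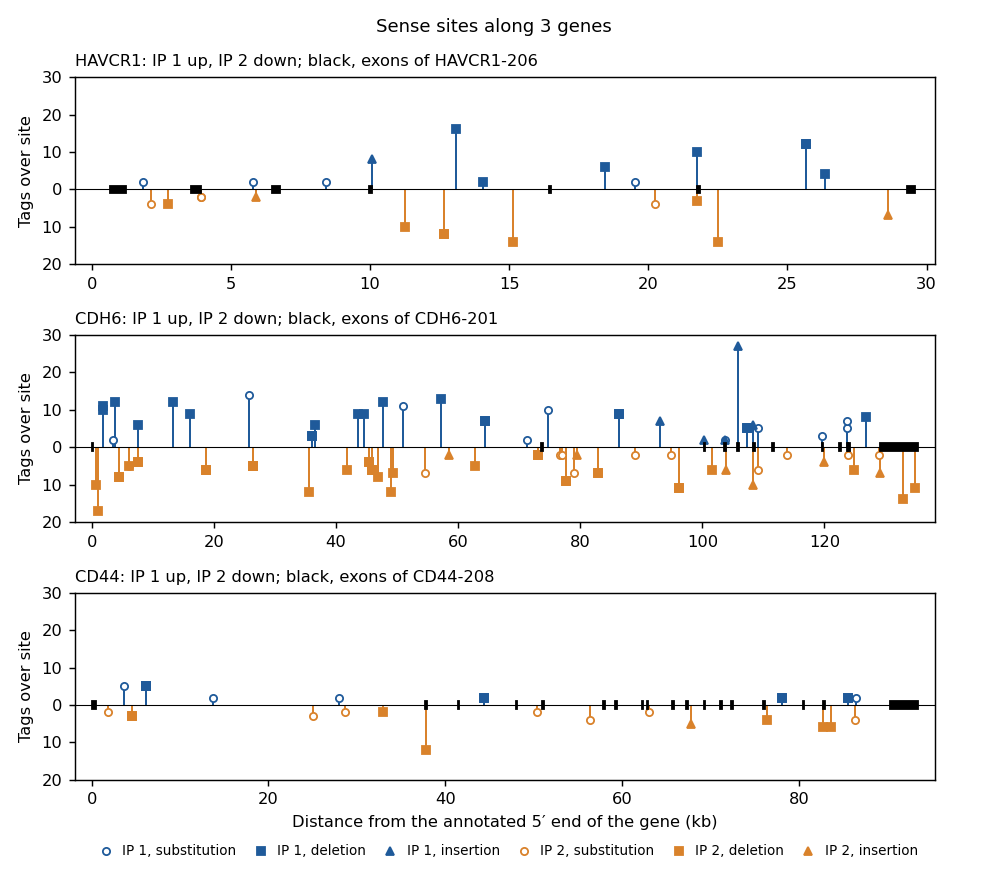
Sense sites along HAVCR1, CDH6 and CD44: distance from the annotated 5′ end of the gene in kb (x axis) against the tags over each site (y axis), IP 1 drawn upwards and IP 2 downwards, by mutation type; black boxes are exons. Sites of HAVCR1 and CDH6 run over the whole gene and reach 16 and 27 tags in IP 1 and 14 and 17 in IP 2, while those of CD44 reach 5 and 12.

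CD44 (chromosome 11, 35138870 to 35232402, plus strand) was intermediate. Its 93.5 kb held 13 sense sites of IP 1 and 15 of IP 2, a density of 1.39 (exact 95% Poisson interval 0.740 to 2.38) and 1.60 (0.898 to 2.65) per 10 kb, against medians of 0.661 and 0.822. Its percentiles for span were 75.8 and 74.3. Along a transcript with 18 exons, intron 1 (37.2 kb) held 6 sites in each IP and intron 17 held 3 and 2. Introns 4 to 14 held none in IP 1 and, in IP 2, 1 each in introns 4, 5, 9 and 11. The exon site of CD44 was a coding-sequence deletion in IP 2 with 12 tags, 2 of them mutated, in exon 2 of 18.

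VIM is 9.34 kb long (chromosome 10, 17228259 to 17237593, plus strand) and had 2 sense sites in each IP, at different places. In IP 1 they were deletions at neighbouring bases of the 3′ UTR, each with 12 tags and 2 mutated, 9.15 kb from the 5′ end. In IP 2 they were intronic substitutions 5.81 and 8.42 kb from it, with 3 tags all mutated and 2 tags both mutated. VIM was at percentiles 84.1 and 81.2 for its span, in a span bin with a median of 0, and each value rests on 2 sites.

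The sequences round 7 of the exon sites are shown because they place the listed base in the mature transcript. Not shown are a further coding substitution and 3′ UTR deletion of CDH6, the neighbouring VIM deletion and the coding substitution of SPP1. Each is the transcript strand of GENCODE release 29 (GRCh38), 5′ to 3′, with the listed base in capitals. The windows reach up to 14 bases to each side and stop at the end of the exon. In the CDH6 3′ UTR deletion and the CD44 deletion the listed base is in a run of 3 equal bases. In the SPP1 insertion the run is 4 bases. A deletion or insertion in such a run cannot be assigned to a single base of it.
HAVCR1, coding exon 4 of 7, insertion in IP 1, chr5:157049038-157049052, minus strand: actcttacacaacaG
CDH6, coding exon 6 of 12, insertion in IP 1 and IP 2, chr5:31302111-31302125, plus strand: Gtacataccagttta
CDH6, coding exon 10, substitution in IP 1, chr5:31317408-31317436, plus strand: gacccttatagtggAcaccaattttcgtt
CDH6, 3′ UTR, deletion in IP 2, chr5:31326587-31326615, plus strand: acaaaacctgcccaTttaattttaacgca
CD44, coding exon 2 of 18, deletion in IP 2, chr11:35176713-35176740, plus strand: ctctgagcatcggaTttgagacctgcag
VIM, 3′ UTR, deletion in IP 1, chr10:17237391-17237419, plus strand: ggaataggaataagCtctagttcttaaca
SPP1, 3′ UTR, insertion in IP 1, chr4:87983346-87983374, plus strand: caattgcttatttgTtttcccacggttgt

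The coding-sequence insertions of HAVCR1 and CDH6 sat on exon edges, while the other insertions of both genes were listed in introns. In HAVCR1 the exonic base was the last of exon 4, with 0 exon bases after it, and 2 of 8 tags carried the insertion. In CDH6 it was the first base of exon 6, with 0 exon bases before it, and 2 of 6 tags in IP 1 and 2 of 10 in IP 2 carried it. Over all protein-coding genes, 67.4% of 519 coding-sequence insertions in IP 1 (exact 95% interval 63.2 to 71.5) and 71.0% of 580 in IP 2 (67.2 to 74.7) lay on the first or last base of an annotated exon. For coding-sequence substitutions the shares were 0.714% and 0.770%, and for deletions 0.946% and 0.602%. The labels do not describe how spliced reads were aligned at these edges, and its part in these sites was not tested.

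VCAM1 (chromosome 1, 100719742 to 100739045) had 1 sense site in each IP, and it was the same base, a substitution in intron 3 with 2 of 2 tags mutated in both. Its percentiles were 54.1 and 49.3. SPP1 (chromosome 4, 87975650 to 87983426) had a coding-sequence substitution and a 3′ UTR insertion in IP 1, with 2 of 2 tags each, and 0 sites in IP 2, at percentiles 87.6 and 29.9. CLU (chromosome 8, 27596917 to 27615031) had 1 intronic insertion with 2 of 4 tags in IP 1 and 1 antisense site there, and 0 in IP 2. PROM1 (chromosome 4, 15963076 to 16084378) is 121.3 kb long, in the span bin of CDH6, and held 0 sense sites of IP 1 and 1 of IP 2, with 4 antisense sites in IP 2. PROM1 was at percentiles 8.82 and 15.2, the lowest of the 10 in each IP. LCN2 (chromosome 9, 4.39 kb) and SOX9 (chromosome 17, 5.40 kb) had no site on either strand. At these lengths a count of 0 is common: genes of their span bin had a median of 0 sense sites per 10 kb in both IPs.

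The sites of HAVCR1 and CDH6 had more tags than those of most genes. The 12 HAVCR1 sites of IP 1 had from 2 to 16 tags with a median of 5, and the 13 of IP 2 from 2 to 14 with a median of 4. The CDH6 sites had from 2 to 27 tags (median 7) in IP 1 and from 2 to 17 (median 6) in IP 2. The CDH6 site with 27 tags was an insertion in IP 1 at 31299634 in intron 5, with 5 tags mutated, and IP 2 did not list that base. Over all protein-coding genes the median was 2 in both IPs. Sites with 10 or more tags were 4 of 12 in IP 1 and 5 of 13 in IP 2 for HAVCR1, and 10 of 36 and 9 of 52 for CDH6. As shares these were 33.3% and 38.5% for HAVCR1 and 27.8% and 17.3% for CDH6, against 1.49% and 1.58% of sense sites of all protein-coding genes.

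Genes with 10 or more sense sites numbered 3128 for IP 1 and 3702 for IP 2. Among them, the mean tags per site put HAVCR1 at percentiles 99.1 and 99.4 and CDH6 at 99.6 and 98.8. CD44 was at 78.5 and 94.0. HAVCR1 averaged 6.5 and 6.92 tags per site, CDH6 7.75 and 6.15 and CD44 2.92 and 4.00, against a median gene of 2.41 and 2.45. In 0.221% of protein-coding genes, 44 in all, at least 4 sense sites in each IP had 10 or more tags. This limit was set after these values were seen, and HAVCR1 and CDH6 were among the 44. It equals the count of HAVCR1 in IP 1, 4, so the place of HAVCR1 was fixed by the choice. Of those 4 sites, 2 were deletions at neighbouring bases with 12 tags each. Counted once, they would leave HAVCR1 below the limit. VIM had 12 tags at both of its sites in IP 1 and at most 3 in IP 2. The tags of a gene over neighbouring sites can be the same tags, and tags amplified without molecular identifiers are not independent molecules.

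**Figure D3:**
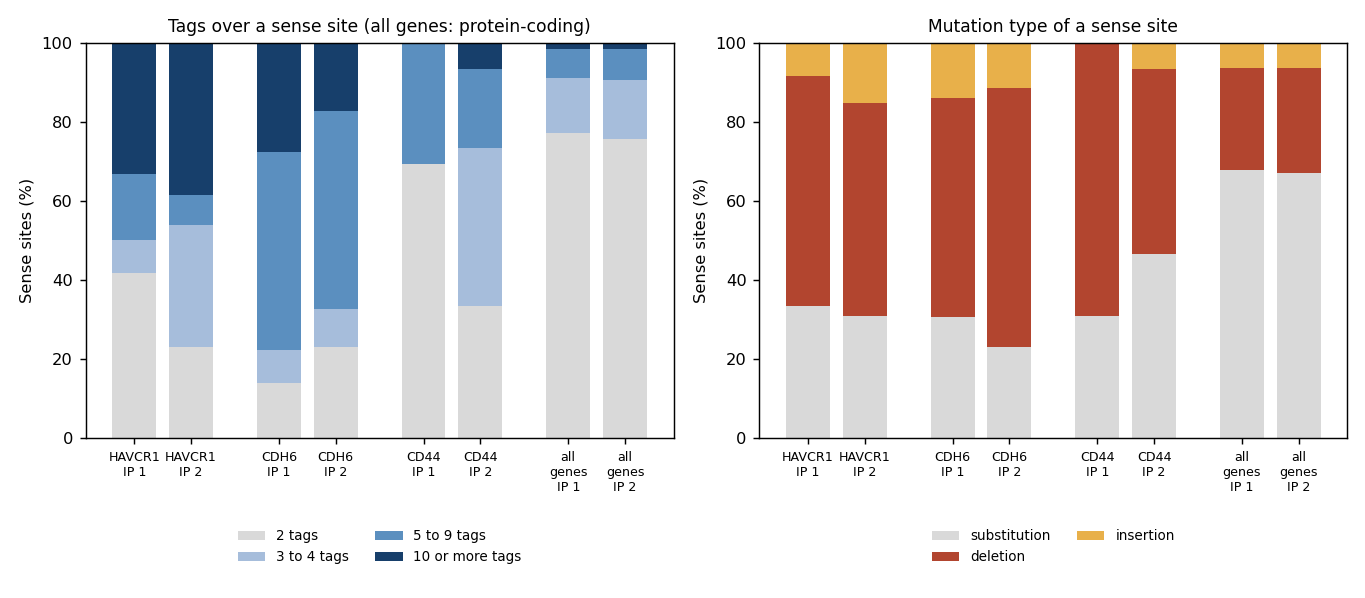
Share of sense sites in percent (y axis) by tags over the site (left) and by mutation type (right) for HAVCR1, CDH6, CD44 and all protein-coding genes in IP 1 and IP 2 (x axis). Sites with 10 or more tags and deletions take a larger share in HAVCR1 and CDH6 than in all protein-coding genes in both IPs.

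Deletions, which are a minority of sites in general, were the majority in HAVCR1 and CDH6 in both IPs and in CD44 in IP 1. In HAVCR1 they were 7 of 12 sense sites in IP 1 and 7 of 13 in IP 2, in CDH6 20 of 36 and 34 of 52, and in CD44 9 of 13 and 7 of 15. Over the 10 genes together they made up 56.7% of sense sites in IP 1 (exact 95% interval 44.0 to 68.8) and 57.1% in IP 2 (45.9 to 67.9), against 25.7% and 26.5% over all protein-coding genes. Tags and type go together in the lists, since 71.0% and 70.6% of all sense sites with 10 or more tags were deletions. In the 10 genes, substitutions with 2 mutated tags were listed only at bases with 2 tags. Deletions with 2 mutated tags were listed at bases with up to 14 tags. The lists thus kept deletions at well-covered bases that had few mutated tags. The part of this in the share of deletions was not tested. Within deletions alone, the median was 10 and 12 tags in HAVCR1 and 9 and 6 in CDH6, against 2 and 2 for the median gene.

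Some deletions are stretches of neighbouring bases with equal tags. In CDH6, 8 of 36 sites in IP 1 and 21 of 52 in IP 2 neighboured another of the same type and tags, and in CD44 9 of 13 and 2 of 15. In HAVCR1 these were 2 of 12 and 4 of 13. Over all protein-coding genes the shares were 16.2% and 16.8% of sites of every type, and 58.4% and 59.2% of deletions. Of deletions alone, 8 of 20 and 21 of 34 in CDH6 had such a neighbour, 2 of 7 and 2 of 7 in HAVCR1, and 9 of 9 and 2 of 7 in CD44. The deletions of CDH6 and HAVCR1 thus showed no excess of such stretches in both IPs. With sites closer than 200 bases merged, CDH6 had 28 clusters in IP 1 and 39 in IP 2, HAVCR1 11 and 11, and CD44 8 and 14. After merging, HAVCR1 was at percentiles 98.5 and 98.1 for its span and CDH6 at 95.2 and 98.7. CD44 was at 65.3 in IP 1 and 80.6 in IP 2 after merging, against 75.8 and 74.3 with all sites.

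The percentiles of HAVCR1 and CDH6 depended on which mutation types were counted. Without deletions, which leaves substitutions and insertions, they were 85.3 in IP 1 and 86.1 in IP 2 for HAVCR1 and 81.3 and 80.1 for CDH6, below 90 but above the middle of the span bin. With substitutions only, the percentiles for span were 81.8 in IP 1 and 76.6 in IP 2 for HAVCR1 and 70.7 and 67.8 for CDH6. With deletions only they were 98.9 and 98.4 for HAVCR1 and 99.1 and 99.8 for CDH6. Both genes were at or above percentile 90 in both IPs when all sites were counted, which is 2 of 10 genes against 4.85% of protein-coding genes, and 0 of 10 were with substitutions only or without deletions. With exon sites per kb of exon, CDH6 was at 85.7 and 82.8, and HAVCR1 at 93.8 in IP 1 and 33.5 in IP 2, where it had 0 exon sites. CD44 was at 49.5 and 61.6 with substitutions only and at 96.4 and 89.1 with deletions only.

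**Figure D4:**
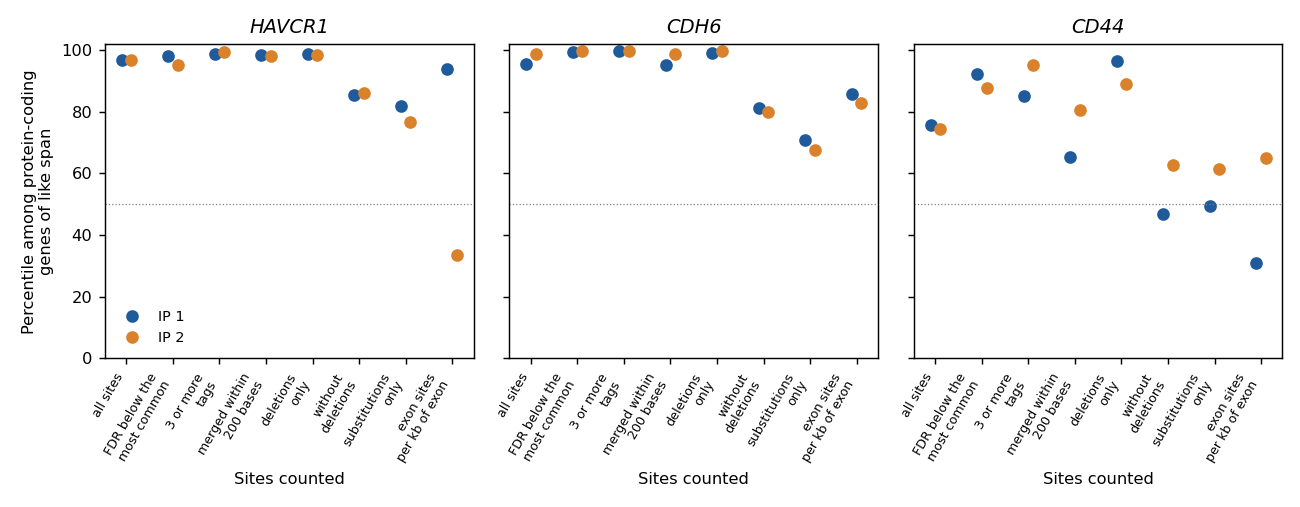
Percentile of HAVCR1, CDH6 and CD44 among protein-coding genes of like span (y axis) in IP 1 and IP 2, by which sites were counted (x axis); the dotted line marks 50. HAVCR1 and CDH6 lie above 95 with all sites and between 67.8 and 81.8 with substitutions only.

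Introns held 59 of the 67 sense sites of the 10 genes in IP 1 and 80 of 84 in IP 2. The shares were 88.1% (exact 95% interval 77.8 to 94.7) and 95.2% (88.3 to 98.7), and both intervals enclosed the shares of all protein-coding genes, 90.6% and 91.2%. Coding sequence held 5 and 2 sites, 3′ UTRs 3 and 2, and 5′ UTRs 0 and 0. In VIM and SPP1, where exons are 55.3% and 29.8% of the span, the 2 sites of each gene in IP 1 were exonic. Those of VIM were at neighbouring bases. In IP 2 the 2 sites of VIM were intronic and SPP1 had 0. Antisense sites were 8.22% of all sites of the 10 genes in IP 1 and 12.5% in IP 2, against 11.1% and 15.2% over all protein-coding genes.

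Of the sense bases of the 10 genes, 4 were listed in both IPs, which is 6.06% of 66 bases in IP 1 and 4.76% of 84 in IP 2, against 4.96% and 4.11% over all protein-coding genes. They lay in 3 genes, HAVCR1 (1), CDH6 (2) and VCAM1 (1), and 14.1% of protein-coding genes had at least 1. The HAVCR1 base was a deletion at 157037383 in intron 5, with 2 of 10 tags in IP 1 and 2 of 3 in IP 2. The CDH6 bases were the insertion at exon 6 and a substitution at 31302890 in intron 6, with 4 of 5 tags mutated in IP 1 and 4 of 6 in IP 2. No base of CD44 or VIM was listed in both IPs. Within 200 bases, 7 bases of IP 1 had a site of the same gene in IP 2: 3 in CDH6, 2 in HAVCR1 and 1 each in CD44 and VCAM1.

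None of the 8 tested genes passed a test of a difference in sense sites between the IPs. LCN2 and SOX9, with no site, were not tested. A two-sided Fisher's exact test set each gene's sense sites against the rest of the 103909 of IP 1 and 125338 of IP 2. P-values were adjusted by Benjamini-Hochberg over the 13442 protein-coding genes with a sense site. The test compares 2 libraries and not conditions. Of the 8 of these genes with a sense site, 0 were called at an adjusted p of 0.05, against 0.0149% of genes tested. At an unadjusted p under 0.05 there were also 0, against 6.52% of genes tested. The lowest value was that of SPP1, with 2 and 0 sites (Benjamini-Hochberg adjusted p = 0.962, Fisher's exact test). VIM, VCAM1, PROM1, SPP1 and CLU had at most 2 sense sites in each IP, too few to be called however they were divided. VCAM1, PROM1, SPP1 and CLU could not reach an unadjusted p under 0.05 either. Their outcome was fixed in advance, so the test could inform only on HAVCR1, CD44 and CDH6. CDH6 had an odds ratio of 0.839 for IP 1 over IP 2 and HAVCR1 of 1.12. The genes called were REPS2 and LRIG2, named after their values were seen, with 30 against 5 sense sites for REPS2 and 35 against 9 for LRIG2, IP 1 against IP 2. With neighbouring sites merged, 0 of the 13442 genes were called.

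A wider list of 60 other genes of tubule injury and repair was set beside them. It was chosen with earlier results of these data known, so its shares and medians are a description only. Of these, 41 were named in both IPs, 68.3% (exact 95% interval 55.0 to 79.7), against 55.4% of protein-coding genes, and the median percentile for span was 71.4 in IP 1 and 76.6 in IP 2. The corresponding medians of the 10 genes were 65.0 and 43.0, and those of all protein-coding genes 45.2 and 45.1. Genes with 0 sense sites share the same percentile within a span bin, and it is lower for longer genes. It was 38.0 and 36.7 for LCN2 and SOX9 and 12.9 and 10.9 for SLC22A6. The median of all protein-coding genes equals that of short genes with 0 sites, such as CCL2. List medians therefore depend on span as well. Median spans were 16.3 kb for the wider list, 18.7 kb for the 10 genes and 27.1 kb for all protein-coding genes. EGFR, the receptor for epidermal growth factor (192.6 kb), held 56 and 67 sense sites, 4 shared bases and percentiles 98.2 and 98.6. RUNX1, a transcription factor with a 1217 kb span, had 57 and 43 sites, 3 shared bases and percentiles 52.6 and 41.5. The bZIP factor gene CREB5 had 73 and 100 sites with percentiles 82.0 and 86.4, and ITGB6, an integrin chain of injured epithelium, 20 and 17 with percentiles 88.9 and 76.3. The annexin partner S100A10 and the keratin KRT20 had no site in either IP.

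Genes of the differentiated proximal tubule, the segment HK-2 cells come from, had lower medians. They were also longer, with a median span of 46.0 kb against 16.3 kb for the wider injury list, which lowers the percentile of genes without sites. This list too was chosen with earlier results of these data known, so the contrast is a description only. Of 35, 22 were named in both IPs (62.9%, exact 95% interval 44.9 to 78.5), with median percentiles of 27.3 in IP 1 and 29.1 in IP 2. The bicarbonate transporter SLC4A4 had 33 and 51 sense sites at percentiles 59.8 and 65.5, the peptidase DPP4 6 and 8 at 52.4 and 54.5, and the inositol oxygenase MIOX 2 and 3 at 96.0 and 98.0. The endocytic receptor genes LRP2 and CUBN, which define the segment, had 2 and 4 and 1 and 6 sense sites, named after their values were seen. The organic anion transporter SLC22A6 and the amino acid transporter SLC7A9 had no site. Among markers of other cells, both IPs named 4 of 9 fibroblast and pericyte genes, 4 of 7 endothelial, 1 of 7 immune and 2 of 9 of other nephron segments. Their sense sites summed to 25 and 19 for fibroblast and pericyte genes, 5 and 9 for endothelial, 4 and 5 for immune and 4 and 4 for other segments. RGS5 alone held 18 and 11 of the fibroblast and pericyte sites, and CSF1R alone held all 4 and 5 immune sites. Both were named after their values were seen. MCAM (2 and 5 sense sites) and PECAM1 (2 and 2) had 1 shared base each. DCN, COL3A1, EMCN, KDR, CD3E, SLC12A1 and CALB1 had no site in either IP.

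**Figure D5:**
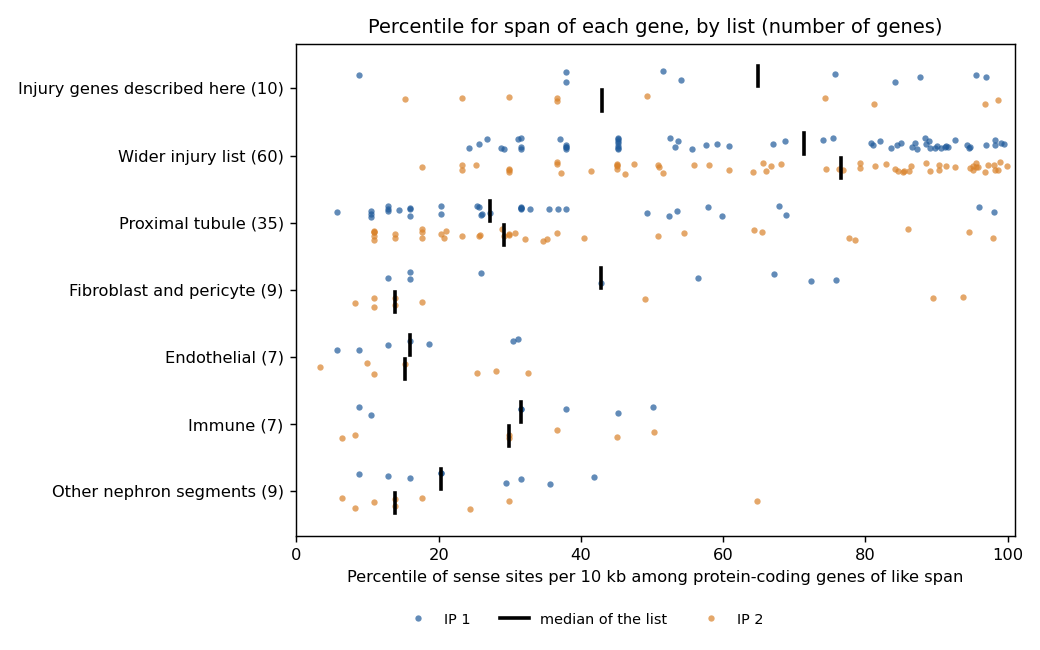
Percentile for span of the sense-site density (x axis) for every gene of 7 lists (rows, number of genes in brackets), IP 1 in blue and IP 2 in orange; black bars are list medians. The medians of the 60 other injury genes are 71.4 and 76.6 and those of the 35 proximal tubule genes 27.3 and 29.1. Genes with 0 sites share the same percentile within a span bin, which is lower for longer genes, and the lists differ in span. The lists were chosen with earlier results of these data known.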

How the data were processed

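RNA from 2 PARP1 immunoprecipitations of HK-2 cells was analysed, with 1 deposited list of sites per IP. Per the labels' protocols, cDNA was primed with random hexamers and amplified by PCR. The tools named are bcl2fastq and TopHat2 and the build GRCh38, per the submitters' processing notes. No label or header names the site caller, its settings or the handling of duplicates and multiple mapping. Deposited values are counts of tags and of mutated tags per site, per the file headers. The authors' FDR, by its name a false discovery rate, is deposited for each site, and the deposited score equals the mutated tags. The files give depth as the tags over the sites, 419675 in IP 1 and 572870 in IP 2.

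Identifiers were joined without their version to GENCODE release 29, and all 10 genes and all 127 genes of the other lists matched a protein-coding gene. Percentiles were taken within 10 bins of gene span. Intervals are exact at 95% (Clopper-Pearson for shares, Poisson for densities) and cover counting error only. Neighbouring sites can share tags, so they are too narrow. Gene position and type came from the annotation, region class from the lists. Analyses used Python 3.11.15, pandas 2.3.3 and SciPy 1.17.1. On simulated counts for 13442 genes, Fisher's exact test recovered 92.0% of 200 genes changed by a fold of 4 and 17.5% at a fold of 2. The changed genes were drawn only from genes with larger numbers of sense sites. Of the 10 genes, only HAVCR1, CD44 and CDH6 had that many, so these shares do not hold for the others.

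The members and lists were chosen with earlier results of these data known. The text names all 10 genes, the genes of each other list with the most shared bases (up to 4 from the wider injury list and 3 from the others, ties by sense sites) and the 2 longest with no site, of which 1 is not reported here. Alternatives were stricter site filters, substitutions only, merged sites, exon density, 20 span bins, looser overlap and each IP alone. Deletions only and sites without deletions were added after the data were seen.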

Additional observations from a re-analysis of the deposited data

How the results depend on the processing

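The number of genes named in both IPs (5 of 10) was 1 with an exon site required in each IP (CDH6) and 3 with a shared base required, and 4 or 5 under the other filters. With 1 IP left out, the genes named in the remaining IP alone numbered 6 to 7 (6 for IP 2 and 7 for IP 1), which is a different quantity. The 2 genes at or above percentile 90 for their span became 0 with substitutions only, 0 with exon sites per kb of exon and 0 without deletions, a setting added after the data were seen, and stayed at 2 under the other settings; in either IP alone there were also 2. The 4 shared bases became 2 with substitutions only and 7 within 200 bases. The intron share of 92.1% over both IPs ranged from 88.1% to 95.2%. Sites with 10 or more tags in HAVCR1 and CDH6 together, 24.8% against 1.54% in all protein-coding genes, were 11.1% against 0.609% without deletions and 27.0% against 1.43% after merging, and 21.5% to 29.2% without 1 replicate. For the comparison of IP 1 with IP 2, 0 genes of the 10 were called with merged sites and with a minimum of 10 sites. Only HAVCR1, CD44 and CDH6 met that minimum. With merged sites 0 of 13442 genes were called, so the calls of REPS2 and LRIG2 were lost. No paired analysis was possible because the libraries compared, IP 1 and IP 2, belong to 1 group, and a second group with the same replicate numbers did not enter any comparison. Among the 10 genes, densities of those under 10 kb rest on at most 2 sites in each IP.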

Other observations

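Downstream of HAVCR1 on the same strand lies TIMD4, a phosphatidylserine receptor gene of macrophages that was looked at after its neighbour's values were seen. TIMD4 (44.0 kb) held 15 sense sites of IP 1 and 5 of IP 2, at percentiles 96.1 and 58.0. On the other side of HAVCR1, HAVCR2 (57.0 kb) had 0 and 0 sense sites. The neighbours of CDH6 were DROSHA (131.7 kb), with 21 and 20 sense sites at percentiles 81.1 and 72.6, and CDH9 (240.6 kb), with 1 and 1 at 16.1 and 8.57. None of these 4 neighbours had a site with 10 or more tags in either IP. Other genes of the lists with at least 4 such sites in both IPs were TPM1 (6 and 6), an actin filament tropomyosin, and PAX8 (5 and 6), a nephric lineage transcription factor. TPM1 is in the wider injury list and PAX8 in the proximal tubule list. They were picked after their values were seen.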
